A study of Mus musculus with 6 samples.

Results

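Dub1 and Dub1a are mouse genes of the Usp17-like family, which encodes deubiquitinases, cysteine proteases that remove ubiquitin from other proteins. They are the 2 rows, of 19467 gene rows in all, whose symbol begins with Dub followed by a digit. The symbols are older names: RefSeq now lists Dub1 as Usp17la and Dub1a as Usp17lb, both on chromosome 7. A further family gene, Usp17lc, stands in the gene table under its synonym Usp17l5 and is described beside them, although its symbol does not begin with Dub. The further family genes Usp17ld and Usp17le were matched to no row of the gene table, so no counts are given for them.

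Ubiquitin is a small protein attached to other proteins, often to send them to the proteasome, and deubiquitinases reverse the attachment. The founding members of the family were cloned from mouse blood cells as genes switched on quickly by cytokines, Dub1 by interleukin 3 and its relative Dub2 by interleukin 2. Usp17-like genes are also known among the transcripts of the mouse 2-cell embryo and of 2-cell-like cells, the rare cells of stem cell cultures that resemble that stage.

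Messenger RNA was counted in E14Tg2A mouse embryonic stem cells grown with serum and leukaemia inhibitory factor. Each sample received 5 nmol of a Lissamine-labelled antisense oligonucleotide (ASO) by nucleofection, was left for 48 h, and gave 300000 sorted fluorescent cells. One arm of 3 libraries got the RC control ASO and the other arm of 3 libraries an ASO to LINE1, the long interspersed retrotransposon, so that delivery, dye and sorting were shared by both. All libraries come from 1 cell line, and the labels name no separate cultures, so the p-values here speak of the spread among these libraries alone, part of which could be technical. The libraries held 19954026 to 31704616 gene-assigned reads.

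The sequences just before the start sites are shown as a description, because the family genes moved together. Neither their part in that rise nor that of reads shared among the genes was tested. The sequences are the 150 bases upstream of the RefSeq start in GRCm38.p6, a later build than the mm9 used for the counts. They are written 5′ to 3′ on the strand of the gene, at chr7:104856866-104857015 (+) for Dub1, chr7:104842584-104842733 (-) for Dub1a and chr7:103416546-103416695 (+) for Usp17l5. Capitals mark the 6 letters TATAAA of the Dub1a window and the letters aligned with them in the other windows.
Dub1: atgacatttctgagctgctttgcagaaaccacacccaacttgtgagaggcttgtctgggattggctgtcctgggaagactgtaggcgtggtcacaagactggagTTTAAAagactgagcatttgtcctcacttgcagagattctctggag
Dub1a: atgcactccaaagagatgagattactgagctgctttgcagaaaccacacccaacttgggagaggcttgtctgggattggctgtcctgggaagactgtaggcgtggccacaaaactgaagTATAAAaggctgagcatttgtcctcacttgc
Usp17l5: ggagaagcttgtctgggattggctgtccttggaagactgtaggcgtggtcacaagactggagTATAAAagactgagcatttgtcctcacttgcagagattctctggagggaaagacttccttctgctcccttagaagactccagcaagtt

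The windows were near copies of one another where they aligned, but the shared stretch lay at different distances from the start sites. The Dub1 and Dub1a windows matched at 94.1% of 135 aligned bases, those of Dub1 and Usp17l5 at 96.3% of 108, and those of Dub1a and Usp17l5 at 93.5% of 93. The longest run of letters common to all 3 windows was 23 bases. TATAAA, the usual core of a TATA box, was present in the Dub1a and Usp17l5 windows, and the Dub1 window differed from that of Dub1a there by A121T, counted from 1 at the 5′ end of the Dub1a window. The first capital lay 46 bases before the RefSeq start in Dub1, 31 in Dub1a and 88 in Usp17l5. On either strand, TATAAA occurred in 13.6% of 32851 RefSeq promoter windows of 300 bases, and the longer windows of Dub1a and Usp17l5 held it while that of Dub1 did not. The letters CCACACCC, which do not overlap TATAAA, occurred in the 300-base windows of all 3 genes and in 3.56% of all such windows. They can be read in the Dub1 and Dub1a windows printed above, so finding them there was no test. As the windows are near copies, the 3 genes are not separate cases for either set of letters. A match of letters is a description and not a site of binding.

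Dub1 was the most abundant of the 3 genes and rose about 13-fold. Its reads numbered 42, 73 and 48 in RC replicates 1, 2 and 3 and 1434, 564 and 654 in LINE1 ASO replicates 1, 2 and 3. In CPM (read counts scaled to TMM-adjusted library totals) these were 2.19, 2.74 and 1.71 against 44.2, 18.2 and 24.0. Every LINE1 ASO library lay above every RC library, with LINE1 ASO replicate 1 the highest and replicate 2 the lowest of its arm. The arms averaged 2.21 ± 0.515 and 28.8 ± 13.7 CPM (SD, n = 3 each). The log2 fold change was 3.70 ± 0.38 (SE), a 13.0-fold rise (edgeR quasi-likelihood test, Benjamini-Hochberg adjusted p = 0.00399 over all genes, abbreviated as BH-adjusted p by edgeR). Of 14725 genes tested, 4.93% were called higher and 1.17% lower at a BH-adjusted p under 0.05, and Dub1 ranked 53 from the top by fold change.

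Dub1a, the near neighbour of Dub1, rose by a like factor from a lower level. It had 17, 15 and 22 reads in RC replicates 1, 2 and 3 and 449, 175 and 202 in LINE1 ASO replicates 1, 2 and 3. These stood at 0.886, 0.563 and 0.786 CPM against 13.8, 5.64 and 7.42 CPM. All LINE1 ASO libraries were above all RC libraries, as was so for 16.8% of genes tested (28.7% had no overlap in either direction), and LINE1 ASO replicate 1 was again the highest. The arm means were 0.745 ± 0.165 and 8.97 ± 4.31 CPM (SD, n = 3 each). The log2 fold change was 3.60 ± 0.40 (SE), 12.1-fold, ranking 62 among the 14725 genes (BH-adjusted p = 0.00465 by edgeR).

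Usp17l5, the RefSeq gene Usp17lc that carried the name Dub2, was the weakest of the 3 genes and rose too. It had 7, 13 and 13 reads under RC, against 257, 115 and 100 under the LINE1 ASO. In CPM it stood at 0.365, 0.488 and 0.464 against 7.92, 3.71 and 3.67, with no overlap. Its log2 fold change was 3.51 ± 0.41 (SE), 11.4-fold (BH-adjusted p = 0.00515 by edgeR).

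**Figure D1:**
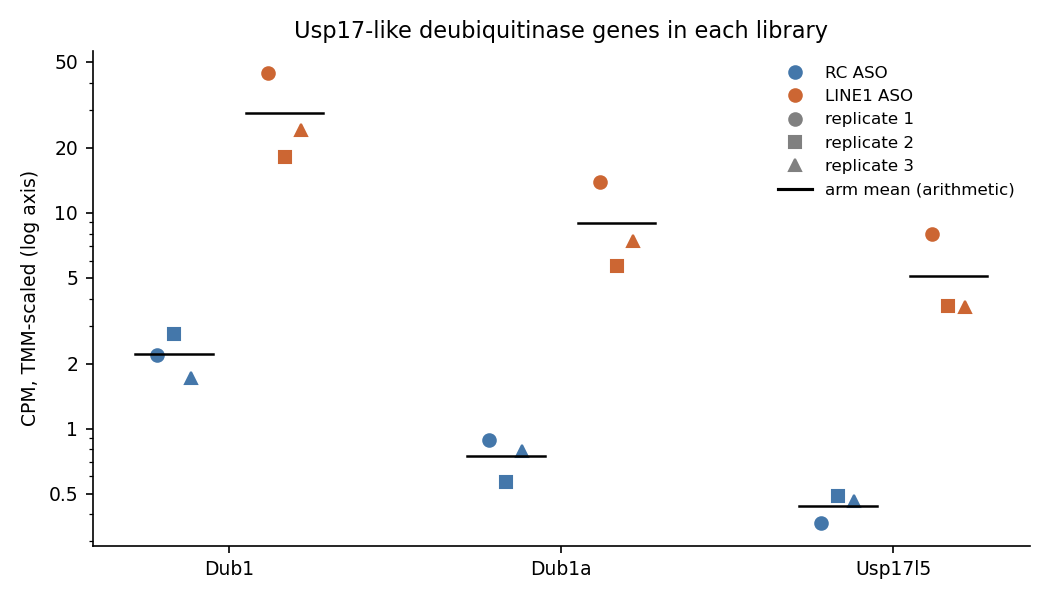
CPM (log axis) of Dub1, Dub1a and Usp17l5 in each of the 6 libraries, by arm (colour) and replicate number (shape), with the arithmetic arm mean as a line. All LINE1 ASO libraries lie above all RC libraries for each gene, and LINE1 ASO replicate 1 is the highest for each.

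Levels per length kept the same order in both arms. On the scale of CPM per kilobase of the longest GENCODE M21 transcript (2656, 1558 and 2403 bases), Dub1 stood at 0.834 in the RC arm and 10.8 in the LINE1 ASO arm. Dub1a stood at 0.478 and 5.75, and Usp17l5 at 0.183 and 2.12, on that scale. Dub1 was above Dub1a, and Dub1a above Usp17l5, in all 6 libraries. Between libraries, Dub1 (0.645 to 1.03) and Dub1a (0.362 to 0.568) did not overlap in the RC arm, but their ranges of 6.84 to 16.6 and 3.62 to 8.88 overlapped in the LINE1 ASO arm. The transcript models come from a later build, so these lengths may differ from those behind the counts.

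Reads cannot be placed with equal certainty among the 3 genes. The Dub1 and Dub1a transcripts were 91.0% identical over 1549 aligned bases, and Dub1 and Usp17l5 93.7% over 2338. Of the distinct 50-base stretches, 16.2% in Dub1, 21.2% in Dub1a and 44.5% in Usp17l5 also occurred in another Usp17-like transcript. In transcripts of genes outside the family, 7.36%, 11.4% and 4.72% of them were found. How reads that map to several places were counted is not given in the sources used here, so the values of single genes are uncertain while the sum depends less on how reads were split within the family.

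Summed over both Dub genes, reads rose 12.8-fold. The sum was 59, 88 and 70 reads in RC replicates 1, 2 and 3 and 1883, 739 and 856 in LINE1 ASO replicates 1, 2 and 3, or 3.07, 3.31 and 2.50 CPM against 58.0, 23.8 and 31.4. The arms did not overlap, and the spread within the LINE1 ASO arm was far wider than in the RC arm, at 37.8 ± 18.0 against 2.96 ± 0.415 CPM (SD, n = 3 each). Fitted as 1 row in the whole table, the sum stood 3.68 ± 0.36 (SE) higher on the log2 scale (BH-adjusted p = 0.00384 by edgeR). The mean log2 CPM differed by 3.58 (two-sided exact permutation p = 0.1, the smallest that 3 against 3 libraries can give). With Usp17l5 added to the sum, the fitted rise was 12.6-fold.

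Within replicate numbers, each LINE1 ASO library was compared with the RC library of its own number. The summed Dub CPM was 18.9, 7.20 and 12.6 times higher in replicates 1, 2 and 3. For Dub1 the ratios were 20.2, 6.63 and 14.0, and for Dub1a 15.6, 10.01 and 9.44. Replicate 1 had the largest ratio for each of these genes, and replicate 2 the smallest for the sum. The repeats of MERVL, an endogenous retrovirus active in the 2-cell embryo, showed ratios of 8.38, 3.78 and 4.52 for its internal part MERVL-int and 7.07, 3.34 and 3.58 for its terminal repeat MT2_Mm. These too were largest in replicate 1 and smallest in replicate 2.

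**Figure D2:**
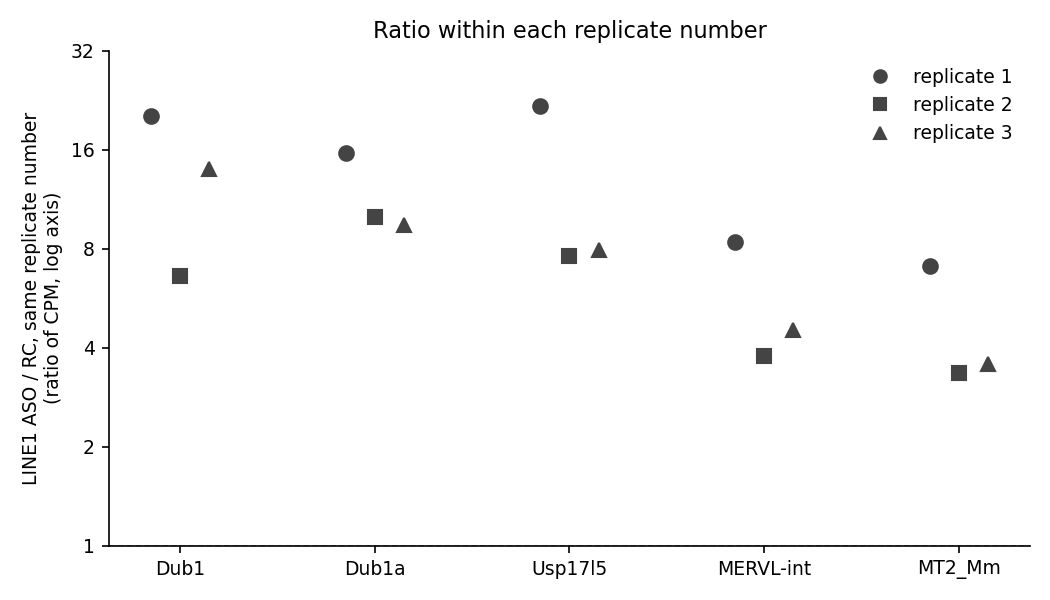
Ratio of CPM in the LINE1 ASO library to CPM in the RC library of the same replicate number (log axis, dashed line at 1) for 3 Usp17-like genes and the 2 MERVL repeat names. All ratios lie above 3, and those of replicate 1 are the highest for each feature.

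The split of reads between the members was also compared. Dub1a took 28.8%, 17.0% and 31.4% of Dub reads in RC replicates 1, 2 and 3 (95% Wilson intervals 18.8% to 41.4%, 10.6% to 26.2% and 21.8% to 43.0%, which cover counting error only). In the LINE1 ASO libraries it took 23.8%, 23.7% and 23.6%, within intervals of 20.8% to 26.9% in replicate 2, which had the fewest reads of that arm. The LINE1 ASO values fell inside the range of the RC values, whose wide intervals rest on few reads. The mean share differed by -2.05 percentage points between arms (25.8% ± 7.66 in RC, 23.7% ± 0.126 in LINE1 ASO; SD, n = 3 each; two-sided exact permutation p = 0.7), and it turned to 0.778 without RC replicate 3 and went to -6.41 without RC replicate 2 (exact permutation p = 0.1, the smallest possible). The LINE1 ASO shares lay closer together (SD 0.126) than counting error would give on its own, as the interval of replicate 2 shows. That SD therefore understates the error. An exact permutation test on so few libraries could not have passed a threshold of 0.05, and it does not show that Dub1 and Dub1a respond alike.

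The rise of the Dub genes was set against other genes of the 2-cell stage. The 6 Zscan4 genes, which mark the 2-cell stage, summed to 153, 229 and 183 reads in RC replicates 1, 2 and 3 and to 6414, 2335 and 2816 in LINE1 ASO replicates 1, 2 and 3. The log2 ratio of Dub to Zscan4 reads was -1.37, -1.38 and -1.39 under RC, against -1.77, -1.66 and -1.72 under the LINE1 ASO. Every LINE1 ASO library lay below every RC library, by 0.33 on average, which means that Dub reads rose 0.793 times as much as Zscan4 reads (two-sided exact permutation p = 0.1, the smallest possible). The RC values lay closer together (SD 0.00585) than their counting error of 0.221 in replicate 1 would give on its own, so the spread of 3 libraries understates the error here.

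Against 2-cell-stage genes taken to have few close copies (low paralogy), which was not checked here, the order was the other way round. The 4 genes Zfp352, Sp110, Tmem92 and Arg2 summed to 54, 82 and 80 reads under RC, against 1118, 520 and 467 under the LINE1 ASO. The log2 ratio of Dub reads to these was 0.13, 0.10 and -0.19 under RC and 0.75, 0.51 and 0.87 under the LINE1 ASO. Every LINE1 ASO library was above every RC library, and Dub reads rose 1.62 times as much as the sum of these 4 genes (two-sided exact permutation p = 0.1, the smallest possible). These comparisons share the same Dub reads.

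**Figure D3:**
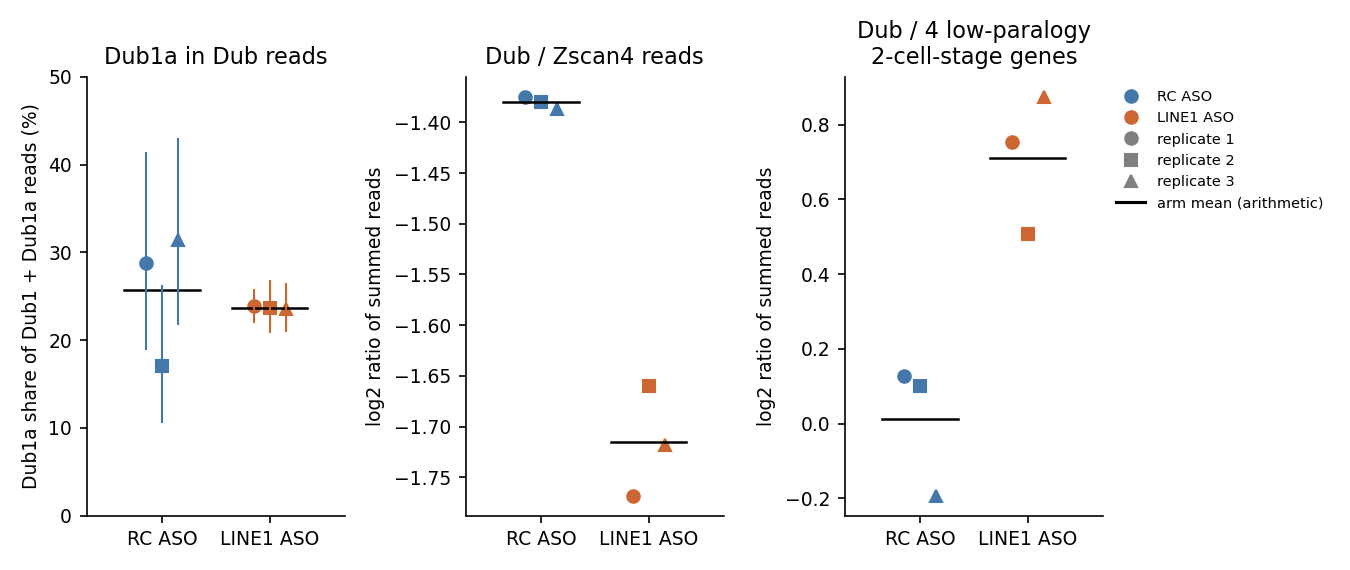
Share of Dub1a in Dub reads (left, percent, bars are 95% Wilson intervals), log2 ratio of Dub to Zscan4 reads (middle) and log2 ratio of Dub reads to 4 2-cell-stage genes taken as low-paralogy (right), per library with the arm mean as a line. The shares of the arms overlap, while the Zscan4 ratio is lower and the low-paralogy ratio higher in all 3 LINE1 ASO libraries.

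Nearly all tested genes of a wider 2-cell-stage list rose as well. Of 45 symbols, 34 had a row, 30 were tested and 29 were called higher, against 4.93% of all genes tested. The median log2 fold change of the 30 was 3.65, against 0.01 over all 14725 genes. The list was chosen with results of these data known, and its members share cells and often sequence. Some members, such as Dux, Tdpoz3 and Tdpoz4, stood at only 0.0870, 0.101 and 0.100 CPM in the RC arm. They passed the count filter through their LINE1 ASO reads, which favours calls of higher among the 30 tested. With no filter, 30 symbols of the list were called higher. Dux, the homeobox factor that switches on 2-cell-stage genes, had a log2 fold change of 4.10, Zscan4c of 4.03, Zscan4d of 4.33 and the zinc finger gene Zfp352 of 2.82. E330021D16Rik, the tested member that was not called, stood at 0.977 CPM in the RC arm and 0.984 CPM in the LINE1 ASO arm. Without RC replicate 1 the number called was 19, and without RC replicate 3 it was 17. Over all genes, those called higher fell from 726 to 169 and 158 in these fits. Dub1 and Dub1a passed in both fits. Without RC replicate 1, RC replicate 3 or LINE1 ASO replicate 1, Dux did not pass (BH-adjusted p up to 0.0960 by edgeR). Zfp352 did not pass without RC replicate 1 or RC replicate 3 (up to 0.0583). Dux had 0, 6 and 1 reads in the RC libraries, and without RC replicate 2 its log2 fold change was 6.02. In bulk RNA a change in the number of cells that express these genes and a change in RNA per cell cannot be told apart.

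Genes whose pattern over the 6 libraries was most like that of the summed Dub reads were sought among 12091 genes whose mean log2 CPM reached 1. The 5 with the highest Pearson correlation on log2 CPM were Zscan4c (0.9996), Zscan4a (0.9992), Zscan4d (0.9991), 9530053A07Rik (0.9990) and the homeobox gene Nkx2-9 (0.9988). In all, 71 of the genes had a correlation above 0.99. With 6 libraries in 2 separate arms such values are a description, since any gene that differs strongly between arms has a high one. 9530053A07Rik rose 4.12-fold and Nkx2-9 rose 6.78-fold, against 12.8-fold for the Dub sum.

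Genes of a wider deubiquitinase list were called at a share near that of all genes, with smaller changes than those of the Dub genes. The list was drawn up by symbol and family, and it also holds relatives without known deubiquitinase activity, such as Eif3h, Cops6, Psmd7 and Usp6nl. Of 89 with a row, 87 were tested, 4 rose and 3 fell, which is 8.05% of them against a background of 6.11% of all genes called in either direction. Their median log2 fold change was -0.04, against 0.01 over all genes, and their range was -0.59 to 2.12. Usp9y, the Y-linked relative of Usp9x, rose 4.34-fold from 0.234 CPM and the ovarian tumour family gene Otud6a rose 2.32-fold from 1.19 CPM. Usp44, known for a role in the mitotic checkpoint, rose by 0.59 on the log2 scale from 28.9 CPM. Usp27x, named here after its value was seen, had a log2 fold change of 0.74. Among those that fell were the ubiquitin hydrolase genes Uchl3 (log2 fold change -0.31) and Uchl5, which binds the proteasome (-0.30), and Eif3h (-0.28), a translation initiation factor subunit of the same protein fold class as some deubiquitinases. The abundant Usp9x, Usp7 and Usp48 stood at -0.13, -0.08 and -0.18 on the log2 scale without passing the test (BH-adjusted p = 0.398, 0.583 and 0.254 by edgeR).

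The calls in this list depended on single libraries and on the design, as did those over all genes. The number called was 0 without RC replicate 1, RC replicate 3 or LINE1 ASO replicate 1, and 1 without LINE1 ASO replicate 3. Calls over all genes, 726 higher and 173 lower, fell to 169 and 2 without RC replicate 1. Without RC replicate 3 they were 158 and 4. Without LINE1 ASO replicate 1 or 3 they were 286 and 13 or 270 and 7. With the replicate number as a block, 33 of the list were called (11 higher and 22 lower). This was 37.9% of the list against 33.7% of all genes in that fit. Library totals in place of TMM factors gave 6 higher and 0 lower, and Uchl3, Uchl5 and Eif3h did not pass there. Usp9x and Usp48 were called lower with the block (BH-adjusted p = 0.0367 and 0.00724 by edgeR, with 0.0367 to 0.770 and 0.00724 to 0.530 over all alternatives).

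**Figure D4:**
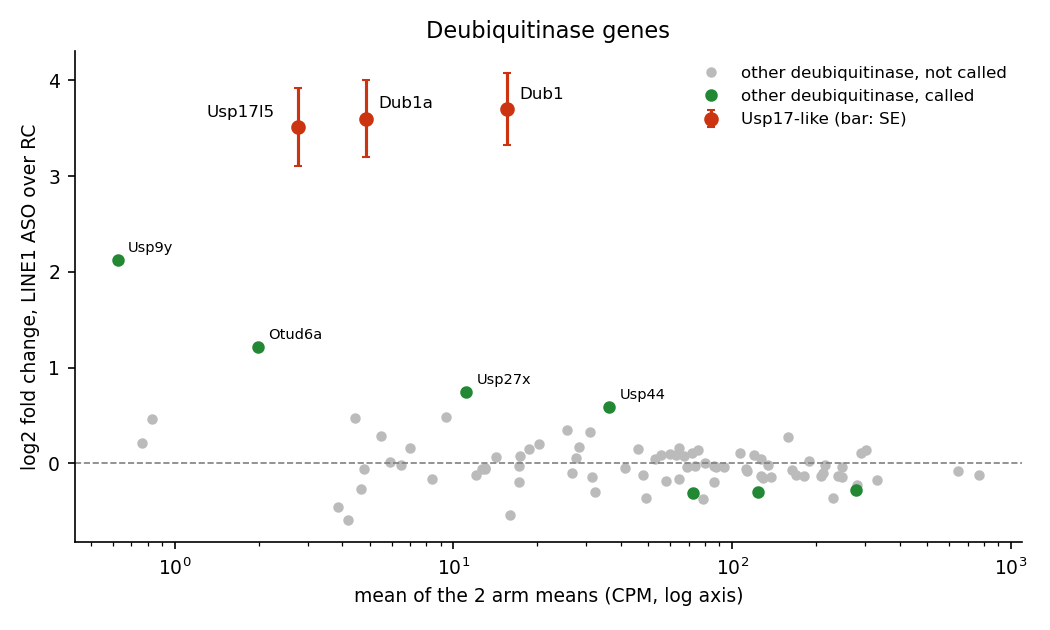
Log2 fold change of LINE1 ASO over RC against the mean of the arm means (CPM, log axis) for 87 other genes of the deubiquitinase list (grey, and green where called) and for 3 Usp17-like genes (red, bars are SE). The Usp17-like genes stand at 3.51 to 3.70, above the highest other gene, Usp9y, at 2.12.

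Rps27a and Ubb, which encode ubiquitin itself, showed small differences. Rps27a, whose product joins ubiquitin to a ribosomal protein, was called lower, at 709 ± 29.7 CPM under RC and 564 ± 38.3 under the LINE1 ASO (SD, n = 3 each), or -0.33 on the log2 scale. It did not pass with library totals, nor when replicate 1 or 3 of either arm was left out (BH-adjusted p up to 0.141 by edgeR, and from 1.37e-04 to 0.141 over all alternatives). Ubb, at 353 ± 2.18 CPM under RC and 337 ± 8.75 under the LINE1 ASO (SD, n = 3 each), stood at -0.07 without passing the test and turned to 0.01 with library totals.

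Human USP17-like enzymes act on substrate proteins, whose amount these RNA counts do not measure. Of 8 genes for reported substrates, all tested, 0 were called by edgeR's quasi-likelihood test, 3 had an unadjusted p under 0.05 and DESeq2 called 1. Over all genes tested the shares were 6.11%, 22.1% and 10.7%, so counts this small say little of the list. Rce1, a protease that trims prenylated proteins such as Ras, stood at 25.7 ± 1.40 CPM under RC and 32.1 ± 3.08 under the LINE1 ASO (SD, n = 3 each). The cell cycle phosphatase gene Cdc25a stood at 182 ± 16.8 and 161 ± 12.6 CPM. With the replicate block 2 of the 8 were higher and 3 lower, against 33.7% of all genes called, and both named genes passed. There Rce1 was higher at a BH-adjusted p = 0.00414 by edgeR (0.00414 to 0.327 over all alternatives), and Cdc25a was lower at a BH-adjusted p = 0.00754 by edgeR (0.00754 to 0.551 over all alternatives). Both also passed without both replicate 2 libraries, and Rce1 with library totals.

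Cytokine receptor and signalling genes, through which Dub1 and Dub2 were first found, were read as well. Of 14 with a row, 10 were tested and 0 were called by edgeR's quasi-likelihood test, with 1 at an unadjusted p under 0.05 and 0 by DESeq2. With 6.11%, 22.1% and 10.7% of all genes reaching these limits, so few genes cannot be set apart from the background. With the replicate block 2 were called, both higher, Jak1 and Stat5b, named here after their values were seen. Il3ra, the alpha chain of the interleukin 3 receptor, stood at 8.55 ± 0.932 CPM under RC and 8.62 ± 1.29 under the LINE1 ASO (SD, n = 3 each). Csf2rb, the beta chain it pairs with, had 1, 0 and 6 reads under RC and 10, 4 and 10 under the LINE1 ASO, and was not tested. The kinase gene Jak2, which signals from that receptor, stood at 14.5 ± 3.86 and 16.3 ± 2.25 CPM.

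Markers fixed for the cell types were read alongside. The 5 stem cell markers summed to 2747 to 2950 CPM in the RC libraries and 2090 to 2388 in the LINE1 ASO libraries, and 1 of them, Pou5f1, was called lower. All 5 had a log2 fold change below 0 (-0.38 to -0.20), 4 had an unadjusted p under 0.05, DESeq2 called 2 and the replicate block called 4 lower. The 7 haematopoietic markers with a row summed to 14.0 to 16.3 and 17.0 to 18.3 CPM. Of the 6 tested, 0 were called by edgeR's quasi-likelihood test, 1 had an unadjusted p under 0.05, DESeq2 called 0 and the replicate block 1. Ptprc, the lowest of the 7 in both arms, was not tested and stood at 0.0238 CPM under RC and 0.2001 CPM under the LINE1 ASO. Cd34, the highest of the 7 in both arms, stood at 4.99 and 5.56 CPM. The 5 fibroblast markers summed to 38.2 to 52.1 and 33.5 to 45.2 CPM. Of the 4 tested, 0 were called by edgeR, 1 had an unadjusted p under 0.05, DESeq2 called 0 and the replicate block 3. Over all genes tested, edgeR called 6.11%, 22.1% had an unadjusted p under 0.05, DESeq2 called 10.7% and the replicate block 33.7%. A log2 fold change above 0 was found for 7506 of the 14725 genes. Counts from lists this short say little beside those shares. No marker with a row was at 0 in all libraries, and the part of the markers in the Dub values was not tested.

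The genes around the family on chromosome 7 were read for comparison, a list drawn up after the gene table was seen. By the gene order of RefSeq GRCm38.p6, 91 other protein-coding genes lie between or within 5 genes of the Usp17-like genes, 71 of them olfactory receptor genes. Of these, 18 had a row here and 6 passed the count filter, and 0 of the 6 were called by edgeR's quasi-likelihood test, with 1 at an unadjusted p under 0.05 and 0 by DESeq2, against 6.11%, 22.1% and 10.7% of all genes. Their log2 fold changes ran from -0.25 to 1.23, all below those of the Usp17-like genes. The highest was Trim30a at 0.360 CPM in the RC arm and 0.855 CPM in the LINE1 ASO arm (BH-adjusted p = 0.0929 by edgeR), and Trim6, the most abundant, stood at 263 and 242 CPM.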

How the data were processed

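The tables deposited by the authors hold unnormalized read counts for genes, by symbol, and for repeats, by name, for the 6 libraries. A directional mRNA kit was used on 1 ug of RNA, per the labels' protocols. The submitters' processing notes name the build mm9, DESeq2 1.12.3, R 3.3.0, HTSeq 0.6.1p1 and TopHat2 2.0.9. For the strand setting, the annotation release and multiply mapped reads nothing is stated in those notes or labels.

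Counts were analysed in R 4.3.3 with edgeR 4.0.16: filterByExpr (minimum count 10, minimum total 15), TMM factors, robust quasi-likelihood fits of arm, and Benjamini-Hochberg adjustment over 14725 genes, with calls at an adjusted p under 0.05. The SE is the log2 fold change over the square root of F. The fit was also run on simulated data, but the outcome is not reported here and lends no weight to the results. Sums, shares and ratios were compared by exact permutation over 20 assignments, or over replicate pairs. Sequences came from RefSeq GRCm38.p6 (2 of 2 members matched) and GENCODE M21, aligned with Biopython 1.88.

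The members and lists were chosen with earlier results of these data known. Named were the family genes, up to 6 called deubiquitinases by smallest p and the 3 most abundant, ubiquitin genes (some not reported here), up to 4 called genes and fixed genes of the substrate and cytokine lists, 4 fixed 2-cell-stage genes, the 5 most alike genes and MERVL repeats. Replicate numbers were taken as pairs only in the ratios within replicate numbers, the replicate block and the paired permutation tests. The main fits and the other permutation tests ignored the pairing. Same-numbered libraries had correlated deviations from the arm means (0.436, 0.659 and 0.394, against a limit of 0.1), although the labels do not say what a number shares. RC replicate 3 with LINE1 ASO replicate 1 (0.220) and RC replicate 1 with LINE1 ASO replicate 3 (0.120) also passed that limit. The other unlike-numbered pairs had negative values. Libraries within an arm differed beyond sampling noise. Alternatives were DESeq2 1.42.0, other scalings and filters, a 2-fold minimum, the replicate block and left-out libraries.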

Additional observations from a re-analysis of the deposited data

How the results depend on the processing

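Dub1, Dub1a and their sum kept direction and call under all alternatives run. Their log2 fold changes ranged from 3.23 to 4.15, 3.12 to 3.81 and 3.21 to 4.02, with BH-adjusted p up to 0.0303, 0.0336 and 0.0302 by edgeR. With the replicate block, which pairs the libraries by number, the log2 fold changes were 3.59, 3.52 and 3.57. Leaving out 1 library gave 3.23 to 3.91 for Dub1 and 3.12 to 3.81 for Dub1a. Depth limits the RC arm most, where 15 to 73 reads stood behind each Dub value.

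Counts over all genes moved more. From 726 higher and 173 lower, the replicate block gave 2591 and 2373, and leaving out both replicate 2 libraries 1810 and 1229. Library totals gave 50 lower, DESeq2 585 and a 2-fold minimum 1. With 1 library left out, higher calls ran from 158 to 1041 and lower calls from 2 to 479. The other deubiquitinases called, 7 in the main analysis, numbered 33 with the replicate block, 20 without both replicate 2 libraries, 2 with a 2-fold minimum and 0 to 8 with 1 library left out. For the ubiquitin, substrate and cytokine receptor genes, 1 call became 9 with the block, 8 without both replicate 2 libraries, 3 with DESeq2, 0 with a 2-fold minimum and 0 to 3 with 1 library left out. With library totals the 1 call was Rce1, higher, in place of Rps27a, lower. The 2-cell-stage genes called ran from 17 to 30 with 1 library left out. The cause of these shifts was not tested.

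The Dub1a share reversed to 0.778 percentage points without RC replicate 3, within -6.41 to 0.778 over left-out libraries. Paired exact permutation p over replicate numbers was 0.25 for the Dub sum and both ratios, the smallest that 3 pairs give, and 0.75 for the share. Il3ra, with a log2 fold change of 0.01, turned to -0.0103 with RLE factors, -0.0200 with no filter, -0.0207 with DESeq2 and -2.72e-04 with a 1 CPM filter, and ran from -0.118 to 0.110 with 1 library left out. Ubb turned to 0.0119 with library totals. Dux did not pass without RC replicate 1, RC replicate 3 or LINE1 ASO replicate 1, nor Zfp352 without RC replicate 1 or 3.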
